A study of Homo sapiens with 6 samples.

Results

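The chromatin compartments and domains of 9 very long human genes, IMMP2L, FHIT, WWOX, MACROD2, LRP1B, CSMD1, CNTNAP2, PTPRD and DLG2, were compared between DKO1 cells and the HCT116 cells from which they derive. HCT116 is a widely used cell line from a human colorectal carcinoma. DKO1 is a clonal derivative of HCT116 with disrupted copies of DNMT1 and DNMT3B, which encode DNA methyltransferases. Each line had 3 Hi-C libraries, of cultured cells for which the labels name no treatment. Hi-C joins and sequences DNA ends that lie close together in cross-linked chromatin. The files used here hold 1 compartment track and 1 domain list for each line. The labels of all 3 replicates name the same files, which were therefore taken as pooled. Values therefore have no replicate error, the lines could not be tested against each other, and every difference is one between these maps.

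Members were fixed by position on hg19 (GRCh37), with 500 kb on each side of a gene as its flanks. The 9 gene bodies lie on 8 chromosomes, measure 900 to 2310 kb (median 2050 kb) and add up to 16.31 Mb. They held 815 of the 140474 bins of 20 kb that were present in both tracks, and the flanks held 450. A single bin of the gene bodies was missing, in WWOX at 78680001 to 78700000 of chromosome 16, and it was missing from both tracks. The compartment score, PC1, is the first principal component of the contact map. It was scaled to a mean of 0 and an SD of 1 on each chromosome before deposit, so it is given in SD and read within a chromosome only. Bins with PC1 above 0 were assigned to compartment A, which holds open chromatin and many genes, and bins below 0 to the more compact compartment B. Beside a gene's mean PC1 the SD runs over its neighbouring bins, which are not independent, and describes variation along the gene.

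Common fragile sites are loci that break or form gaps on metaphase chromosomes when DNA replication is slowed. Many of them coincide with very long genes, which are typically replicated late, hold few replication origins in their interior, and can be transcribed for longer than a cell has to replicate them. FHIT lies in the fragile site FRA3B and WWOX in FRA16D, and deletions inside these genes are frequent in tumours. Late-replicating chromatin mostly belongs to compartment B, where loss of DNA methylation in cancer cells is concentrated. Neither breakage, replication timing nor methylation was measured in the files used here.

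The starts of these genes differ in CpG content, the sequence that DNMT1 and DNMT3B methylate. RefSeq promoter sequences (GRCh38.p14) at the 5′ end of the gene were matched for 7 of the 9 genes. In the 250 bases before the start these held 11 to 32 CpGs, with 54 to 76% G and C. The motif searched was CG, which reads the same on both strands, and 93.9% of 35116 promoter windows of this length held it at least once, with a median of 11. Shown are IMMP2L, where nearly the whole gene differed in sign between the lines as deposited, FHIT, where the 5′ end did, and CNTNAP2, which lay in compartment B in both lines. CpGs are in capitals, and the strand printed is that of the gene. IMMP2L (chr7:111562493-111562742, minus strand) held 24 CpGs, FHIT (chr3:61251453-61251702, minus strand) 11 and CNTNAP2 (chr7:146116551-146116800, plus strand) 12. These positions are on GRCh38.p14 and are not those of the Hi-C bins. Of the promoters not shown, PTPRD held 32 CpGs, MACROD2 29, WWOX 27 and DLG2 20. PTPRD, MACROD2 and WWOX lay in compartment B in both lines at every bin, with more CpGs than IMMP2L. A link between CpG count and switching was not tested.
IMMP2L: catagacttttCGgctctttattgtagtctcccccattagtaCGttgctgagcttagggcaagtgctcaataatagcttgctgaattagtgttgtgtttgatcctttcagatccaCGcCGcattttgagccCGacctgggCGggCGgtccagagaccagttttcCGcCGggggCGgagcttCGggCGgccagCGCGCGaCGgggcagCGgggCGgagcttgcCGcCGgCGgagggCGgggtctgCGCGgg
FHIT: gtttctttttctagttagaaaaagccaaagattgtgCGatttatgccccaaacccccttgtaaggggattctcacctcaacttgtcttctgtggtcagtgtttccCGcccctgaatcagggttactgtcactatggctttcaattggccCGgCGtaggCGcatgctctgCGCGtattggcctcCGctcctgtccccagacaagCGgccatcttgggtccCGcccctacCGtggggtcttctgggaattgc
CNTNAP2: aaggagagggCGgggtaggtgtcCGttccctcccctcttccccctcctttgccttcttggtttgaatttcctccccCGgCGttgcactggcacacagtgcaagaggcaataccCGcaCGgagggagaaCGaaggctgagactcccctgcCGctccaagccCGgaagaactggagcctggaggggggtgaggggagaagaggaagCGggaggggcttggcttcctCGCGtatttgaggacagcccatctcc

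Most of the sequence of these genes belonged to compartment B in both lines. In DKO1 25 of the 815 bins (3.07%) were positive, against 140 (17.2%) in HCT116. Among the other 139659 shared bins 48.9% were positive in DKO1 and 54.0% in HCT116. All 9 genes had a negative mean PC1 in DKO1, and 7 had one in HCT116, the exceptions being IMMP2L and LRP1B. Every bin was negative in both lines in 5 genes, namely WWOX, MACROD2, CNTNAP2, CSMD1 and PTPRD.

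**Figure D1:**
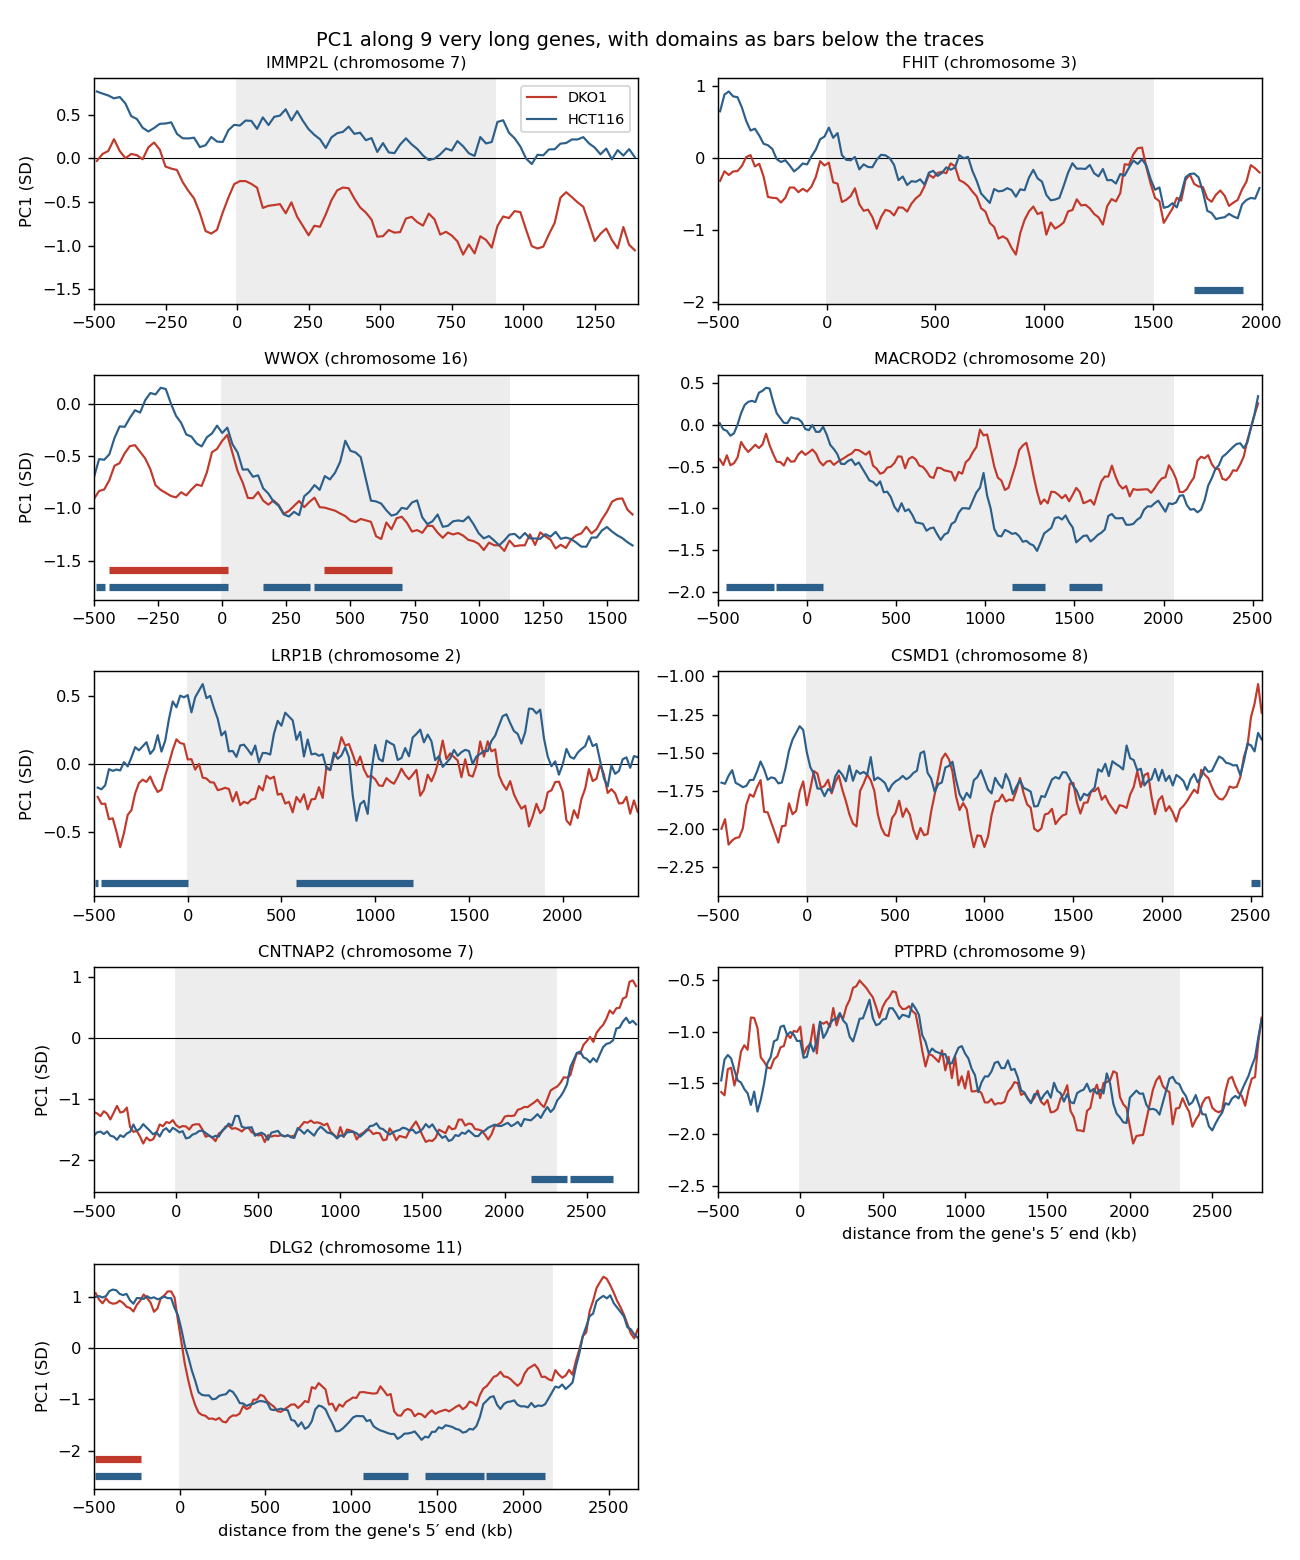
PC1 in SD (vertical axis) along each gene and its 500 kb flanks, by distance in kb from the gene's 5′ end (horizontal axis), for DKO1 (red) and HCT116 (blue). Grey marks the gene body, and bars below the traces mark the domains of each line, with the DKO1 row above the HCT116 row. The DKO1 trace runs below the HCT116 trace over all 45 bins of IMMP2L and above it over 93 of the 102 bins of MACROD2.

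With the deposited zero, most switches of compartment lay in IMMP2L and LRP1B. Bins that were B in DKO1 and A in HCT116, called A-to-B switches, numbered 121 in the gene bodies, or 14.8%, against 10.2% of all shared bins. Of these 121 bins 111 lay in LRP1B and IMMP2L, and the other 7 genes together held 10 among 675 bins (1.48%). The opposite, B-to-A switch, with a bin A in DKO1 and B in HCT116, was found in 6 bins (0.736%), against 4.99% of all shared bins. Of the 675 body bins that were B in HCT116, 669 were B in DKO1 and 0.889% switched, where 10.8% of all B bins did. Of the 140 that were A in HCT116, 86.4% switched, against 18.9% of all A bins. All shared bins include those of the sex chromosomes, where none of these genes lies. Among the other autosomal bins 8.88% switched from A to B and 4.42% from B to A. These were 16.5% of their A bins and 9.60% of their B bins.

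Which genes held the switches depended on the centring. With the chromosome median subtracted, 80 bins switched from A to B, of which LRP1B held 44, IMMP2L 19 and FHIT 17. Of the 21 B-to-A bins 18 then lay in LRP1B and 3 in MACROD2. Relative to a running mean over 10 Mb, 104 bins switched from A to B, with 59 in LRP1B, 29 in FHIT, 8 in IMMP2L and 5 in WWOX. Of the 49 B-to-A bins 22 then lay in MACROD2, 22 in DLG2 and 5 in LRP1B. As deposited, FHIT held 9 A-to-B bins, and MACROD2 and DLG2 had 0 B-to-A bins.

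Bins of the same starting PC1, as deposited, were then set side by side, since weakly positive bins switch most often in the whole genome. The other autosomal bins were pooled across chromosomes, although PC1 is read within 1 chromosome only. Of the other A bins 32.4% switched on chromosome 7 and 14.4% on chromosome 2, so the pooled share is not that of each chromosome. With an HCT116 PC1 from 0 to 0.5 SD, 117 of 135 bins in the gene bodies (86.7%) switched, against 45.0% of the other autosomal bins in that class. These 135 bins come from 4 genes and lie next to each other, so they are far fewer independent values than their number. Of all 140 gene body bins that were A in HCT116, LRP1B held 86 and IMMP2L 43. With a PC1 below -1 SD, 0 of 484 gene body bins switched, against 2.89% elsewhere on the autosomes. Between -1 and -0.5 SD 0 of 97 did, against 8.82%. The 484 bins come from 6 genes and the 97 from 5, so they too are far fewer independent values than their number. Between -0.5 and 0 SD, 6 of 94 bins in the genes (6.38%) switched, against 3703 of 18517 other autosomal bins.

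**Figure D2:**
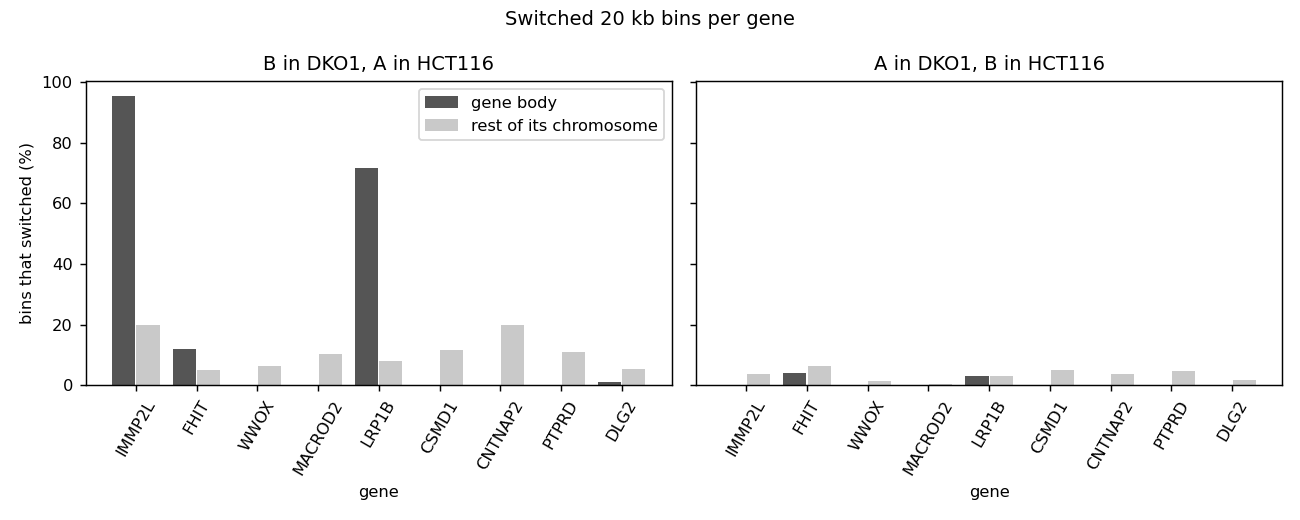
Share of 20 kb bins (vertical axis, percent) that were B in DKO1 and A in HCT116 (left) or A in DKO1 and B in HCT116 (right), for each gene body (dark bars) and for the other bins of its chromosome (light bars). IMMP2L and LRP1B stand at 95.6% and 71.6% in the left panel, and in the right panel only FHIT (4.00%) and LRP1B (3.16%) have a dark bar.

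IMMP2L, which encodes a subunit of the peptidase that trims proteins of the mitochondrial inner membrane, was lower in DKO1 over all 45 bins as deposited. Its mean PC1 was -0.69 ± 0.23 in DKO1 and 0.24 ± 0.16 in HCT116 (SD over 45 bins), a difference of -0.93. The bins of IMMP2L ranged from -1.10 to -0.26 in DKO1 and from -0.018 to 0.56 in HCT116. As deposited the ranges of the 2 lines did not overlap, and with the chromosome median subtracted they did, at -0.93 to -0.083 in DKO1 and -0.28 to 0.30 in HCT116. Of the 45 bins 43 were B in DKO1 and A in HCT116, against 19.8% of the other bins of chromosome 7. Every bin differed by at least 0.5 SD, as did 55.6% of the rest of the chromosome and 31.2% of all shared bins.

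As deposited, the switch was not limited to the gene. In the flanks of IMMP2L 37 of 50 bins switched the same way, 22 of 25 downstream and 15 of 25 upstream. The longest run touching the gene spanned 110540001 to 111460000 of chromosome 7, or 920 kb with 33 of its 46 bins inside IMMP2L, and had a mean PC1 of -0.56 in DKO1 and 0.28 in HCT116. Another run, at 110200001 to 110500000 across the 3′ end, had means of -0.86 in DKO1 and 0.19 in HCT116. The bin with the largest difference was at 110400001 to 110420000, at -1.10 in DKO1 and 0.14 in HCT116. In DKO1 the gene lay inside a B interval of 3220 kb. In HCT116 it was nowhere strongly A, with 2 of 45 bins reaching 0.5 SD in size, and its mean was above 49.1% of the bins of chromosome 7. In DKO1 it was above 28.6% of them.

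The call of compartment A for IMMP2L in HCT116 rests on where 0 lies. Chromosome 7 had a median PC1 of -0.18 in DKO1 and 0.26 in HCT116, and subtracting it gave means of -0.51 in DKO1 and -0.022 in HCT116 for the gene. The difference was then -0.49, and 19 of 45 bins switched. Relative to a running mean over 10 Mb the gene stood at -0.45 in DKO1 and -0.19 in HCT116, a difference of -0.26, and 8 of 45 bins switched. Switches in the flanks of IMMP2L were counted with the deposited zero only. Mean PC1 of the upstream flank was -0.20 in DKO1 and 0.40 in HCT116. The downstream flank stood at -0.77 in DKO1 and, in HCT116, at 0.14, which is below the chromosome median.

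FHIT, a hydrolase of diadenosine triphosphate and the gene of FRA3B, was lower in DKO1 along most of its length. Its mean PC1 was -0.61 ± 0.33 in DKO1 and -0.22 ± 0.21 in HCT116 (SD over 75 bins), a difference of -0.39 that was -0.17 relative to the running mean. DKO1 was the lower line in 66 of 75 bins. Bins of FHIT ranged from -1.35 to 0.14 in DKO1 and from -0.63 to 0.42 in HCT116, so the ranges overlapped.

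At the 5′ end of FHIT the lines differed in sign. The first 100 kb had a mean of -0.39 in DKO1 and 0.21 in HCT116, and 4 of its 5 bins switched from A to B. This was part of a run of 160 kb at 61160001 to 61320000 of chromosome 3 that reached into the upstream flank, where 15 of 25 bins switched. At the 3′ end the order was turned, with a mean of -0.036 in DKO1 and -0.11 in HCT116 over the last 100 kb. There, as deposited, 3 bins at 59780001 to 59840000 were weakly positive in DKO1, at a mean of 0.11, and weakly negative in HCT116, at -0.049. With the chromosome median or the running mean subtracted, FHIT held 0 B-to-A bins. The bin with the largest difference in FHIT was at 61000001 to 61020000, at -0.99 in DKO1 and -0.029 in HCT116.

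WWOX, an oxidoreductase with WW domains and the gene of FRA16D, stayed in compartment B with its 5′ end highest. Its mean PC1 was -1.07 ± 0.24 in DKO1 and -0.90 ± 0.28 in HCT116 (SD over 55 bins). The difference of -0.17 was smaller than the variation along the gene, and after subtraction of the chromosome median it was 0.10. Neither line had a positive bin in WWOX.

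HCT116 had a local peak inside WWOX that DKO1 lacked. At 78600001 to 78620000 of chromosome 16, which is 480 kb from the 5′ end, PC1 was -1.07 in DKO1 and -0.35 in HCT116, the largest difference in the gene. The missing bin lies next to the downstream side of this peak. In the upstream flank of WWOX 0 of 25 bins were positive in DKO1 and 6 in HCT116, as deposited. The highest of these 6 stood at 0.15, below the chromosome 16 median of 0.19 in HCT116.

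MACROD2, whose product removes ADP-ribose from proteins, was higher in DKO1 over most of its length, although its 5′ end was lower as deposited. Mean PC1 was -0.57 ± 0.21 in DKO1 and -0.99 ± 0.37 in HCT116 (SD over 102 bins), a difference of 0.42 that was 0.86 after median subtraction. DKO1 was higher in 93 of 102 bins. The first 100 kb had means of -0.38 in DKO1 and -0.050 in HCT116, so there the order was reversed as deposited. Chromosome 20 had a median PC1 of -0.13 in DKO1 and 0.31 in HCT116, so this order rests on where 0 lies. In the upstream flank of MACROD2 0 of 25 bins were positive in DKO1 and 20 in HCT116, as deposited. That flank had a mean of 0.13 in HCT116, below the chromosome median of 0.31, so this count also rests on where 0 lies. With the same zero, the B interval that holds the gene began at 11200001 of chromosome 20 in DKO1 and at 13960001 in HCT116. It ended at 16480000 in both lines. It measured 5280 kb in DKO1 and 2520 kb in HCT116.

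Inside MACROD2 the DKO1 track had a peak that HCT116 did not show. At 15200001 to 15220000, which is 1230 kb from the 5′ end, PC1 was -0.21 in DKO1 and -1.39 in HCT116, the largest difference in the gene. A neighbouring peak was present in both lines, reaching -0.056 at 970 kb in DKO1 and -0.58 at 990 kb in HCT116.

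LRP1B, a giant receptor of the low-density lipoprotein receptor family that is often deleted or mutated in tumours, lay close to 0 in both lines. Mean PC1 was -0.12 ± 0.14 in DKO1 and 0.15 ± 0.18 in HCT116 (SD over 95 bins), a difference of -0.27. It was positive in 21 bins in DKO1 and in 86 in HCT116, and 68 bins switched from A to B (71.6%, against 7.81% of the rest of chromosome 2). No bin reached 0.5 SD in size in DKO1, and 3 did in HCT116. The switch of LRP1B is therefore one between weak values of either sign, and none of its bins passed a minimum of 0.5 SD in both lines.

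Along LRP1B the lines did not follow the same course, with r = -0.36 across its 95 neighbouring bins. Over the rest of chromosome 2 r was 0.92. That value covers the whole span from A to B, and LRP1B only a narrow range near 0, so the 2 are not like measures. The longest A-to-B run, at 142160001 to 142820000, measured 660 kb and had means of -0.21 in DKO1 and 0.20 in HCT116. At the 3′ end, a run at 140960001 to 141240000 had means of -0.26 in DKO1 and 0.29 in HCT116. It held the bin with the largest difference in LRP1B, at 141060001 to 141080000, which stood at -0.46 in DKO1 and 0.41 in HCT116. The first 100 kb had means of -0.041 in DKO1 and 0.50 in HCT116. Bins that were positive in DKO1 and negative in HCT116 numbered 3 in LRP1B. Subtracting the chromosome median left 44 A-to-B and 18 B-to-A bins in this gene, and a difference of -0.14.

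CSMD1, a membrane protein with complement-control domains, lay deep in compartment B in both lines. Mean PC1 was -1.83 ± 0.13 in DKO1 and -1.67 ± 0.077 in HCT116 (SD over 103 bins), and only 4.70% of the bins of chromosome 8 in DKO1 and 6.57% in HCT116 were lower than these means. The difference of -0.16 became 0.067 after subtraction of the chromosome median. Its variation along the gene was small and was not shared, with r = 0.11 across bins. The bin with the largest difference, at 4180001 to 4200000, stood at -2.04 in DKO1 and -1.49 in HCT116.

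CNTNAP2, a neurexin-like adhesion protein of neurons, is the longest of these genes and hardly differed between the lines as deposited. Its mean PC1 was -1.46 ± 0.18 in DKO1 and -1.50 ± 0.11 in HCT116 (SD over 116 bins). The difference was 0.037, and no bin differed by 0.5 SD, although 55.6% of the rest of chromosome 7 did. With the median of chromosome 7 subtracted the difference was 0.48, and with the running mean -0.41, so its size and sign rest on the centring. A B interval of 4180 kb in DKO1 and 4380 kb in HCT116 held the whole gene. In smoothed tracks its border past the 3′ end lay at 148340000 in DKO1 and at 148460000 in HCT116, a distance of 120 kb, and 7 downstream flank bins switched from B to A. The largest difference within CNTNAP2 was at this end, at 148080001 to 148100000, with PC1 at -0.86 in DKO1 and -1.21 in HCT116. CNTNAP2 and IMMP2L share chromosome 7, and hence its scaling.

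PTPRD, a receptor-type tyrosine phosphatase of synapses, had a similar course in both lines. Mean PC1 was -1.36 ± 0.43 in DKO1 and -1.32 ± 0.33 in HCT116 (SD over 115 bins), a difference of -0.039 that was 0.15 after median subtraction and -0.20 relative to the running mean. The correlation along PTPRD was the highest of the 9 genes, with r = 0.87 across its bins. When PTPRD was divided into 10 parts from the 5′ end, PC1 was highest in part 2 in DKO1, at -0.65, and in part 3 in HCT116, at -0.83. The largest difference lay nearby, at 10280001 to 10300000 of chromosome 9, with -0.57 in DKO1 and -1.10 in HCT116. It lay in a B interval of 5460 kb in DKO1 and 5560 kb in HCT116.

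DLG2, a scaffold protein of the postsynaptic density, formed a B interval between A flanks in both lines. Mean PC1 was -0.99 ± 0.30 in DKO1 and -1.26 ± 0.37 in HCT116 (SD over 109 bins), a difference of 0.27 that was 0.47 after median subtraction. DKO1 was higher in 86 of 109 bins, and the largest difference was at 84160001 to 84180000 of chromosome 11, at -0.75 in DKO1 and -1.61 in HCT116. The flanks of DLG2 had a mean of 0.65 in DKO1 and 0.61 in HCT116. Gene minus flanks was -1.64 in DKO1 and -1.87 in HCT116. The borders of the interval were nearly the same, with the one past the 3′ end at 83000000 in both lines and the one at the 5′ end at 85320000 in DKO1 and at 85300000 in HCT116. A single bin between them switched, from A to B.

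**Figure D3:**
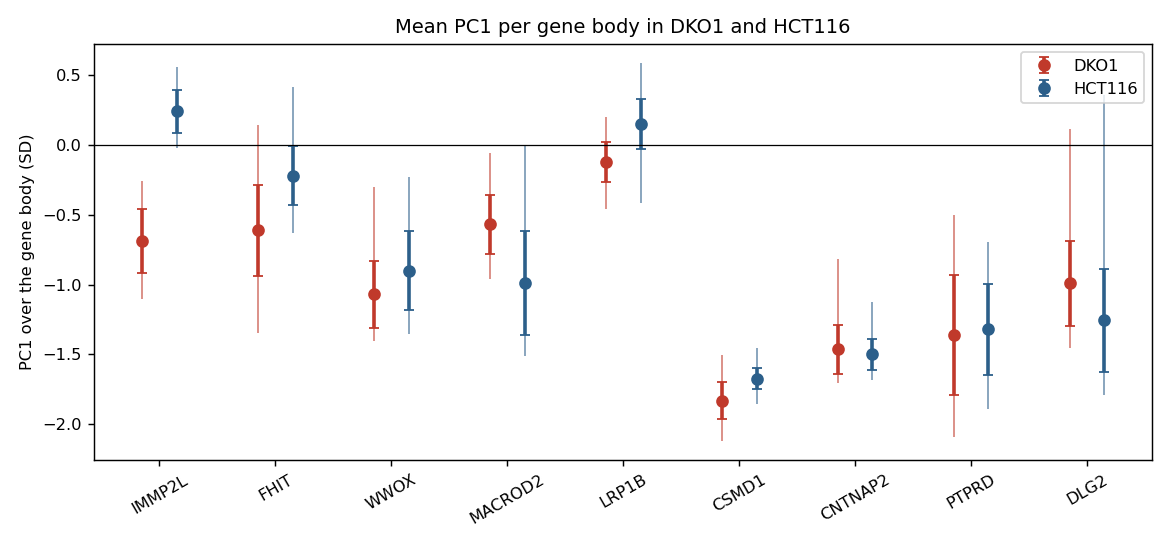
Mean PC1 in SD (vertical axis) over the bins of each gene body (horizontal axis) for DKO1 (red, left of each pair) and HCT116 (blue, right). Thick bars are 1 SD over neighbouring bins, which is variation along the gene and not an error, and thin lines run from the lowest to the highest bin. As deposited, the thin lines of IMMP2L do not overlap, and those of the other 8 genes do.

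Over all 9 genes the direction was mixed and depended on the centring. As deposited the mean was lower in DKO1 in 6 genes and higher in 3. It was lower in 3 and higher in 6 with the chromosome median subtracted, and lower in 7 and higher in 2 relative to the running mean. As deposited the median difference over the 815 bins was -0.060, against 0.0075 over the other shared bins. A difference of at least 0.5 SD was found in 21.0% of the gene body bins, in 31.2% of the other shared bins and in 28.5% of the other autosomal bins. A mean difference of at least 0.5 in size was found in IMMP2L as deposited, in MACROD2 with the chromosome median subtracted, and in 0 genes relative to the running mean.

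The 5′ end of these genes was mostly higher in PC1 than their middle. The first 100 kb exceeded the middle in 9 of 9 genes in DKO1 and in 7 of 9 in HCT116, while the last 100 kb did so in 3 genes in DKO1 and in 6 in HCT116. No such contrast was available for other stretches of the genome, so it is not shown to be particular to these genes. The excess of the first 100 kb ranged from 0.033 in CNTNAP2 to 0.60 in WWOX in DKO1. In DKO1 the excess was below the SD along the gene in CNTNAP2, LRP1B, PTPRD, FHIT and MACROD2, and above it in the other genes. In HCT116 the excess ranged from -0.056 in CNTNAP2 to 1.15 in DLG2. In MACROD2 it was 0.20 in DKO1 and 0.99 in HCT116, and in DLG2 0.46 and 1.15, so the step at the 5′ end was smaller in DKO1 in both genes. The 3 genes whose last 100 kb exceeded the middle in DKO1 were FHIT, by 0.64 in DKO1 and 0.15 in HCT116, CNTNAP2, by 0.51 and 0.31, and DLG2, by 0.48 and 0.28. The strand of LRP1B and CSMD1 was taken from general knowledge and that of the other 7 genes from RefSeq.

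**Figure D4:**
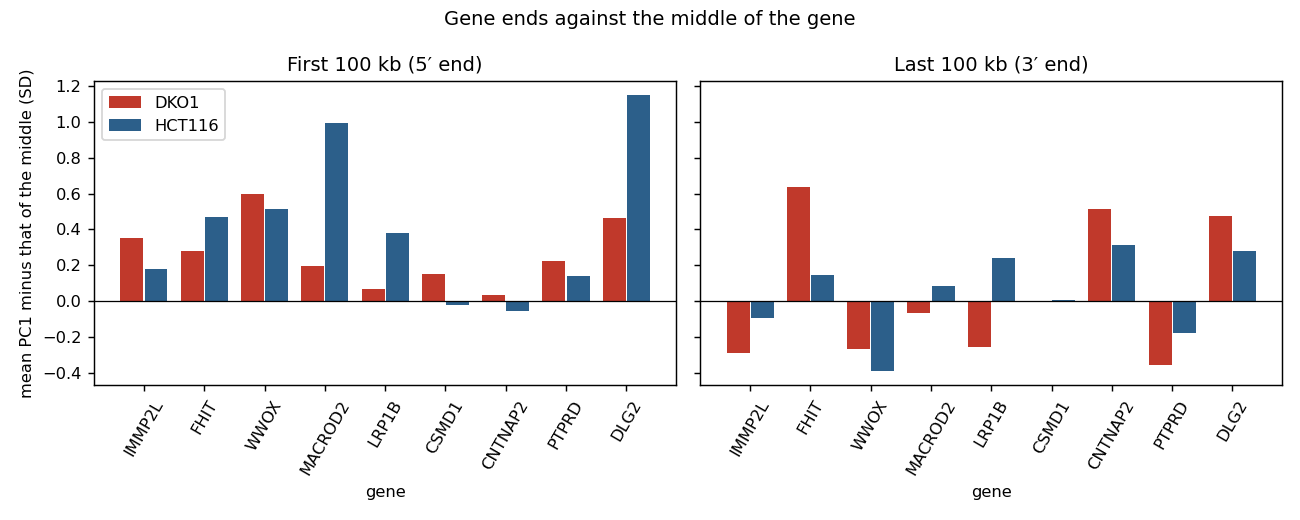
Mean PC1 of the first 100 kb (left) and the last 100 kb (right) of each gene minus that of the bins between them, in SD (vertical axis), for DKO1 (red) and HCT116 (blue). In the left panel all 9 red bars and 7 of 9 blue bars lie above 0, and in the right panel 3 red and 6 blue bars do.

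With the deposited zero, switches in the flanks were counted on each side of the genes. Switches in the flanks alone were not counted with other centrings. Upstream flanks held 67 A-to-B bins, in 5 genes, and 0 B-to-A bins among 225. Downstream flanks held 38 A-to-B bins, all in LRP1B and IMMP2L, and 7 B-to-A bins, all in CNTNAP2. The share of switched bins in the flanks was 23.3% for A-to-B switches, against 10.2% of all shared bins, and 1.56% for B-to-A switches, against 4.99%. Upstream flanks were positive in 43 of 225 bins in DKO1 and in 110 in HCT116. Downstream flanks were so in 33 bins in DKO1 and in 64 in HCT116. Only bins that were A in HCT116 could switch from A to B, and the upstream flanks held more of them. The counts of 67 and 38 therefore do not show that the sides differed in how often such bins switched.

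Domains, which are segments with more contacts inside them than across their ends, were sparse in these genes and sparser in DKO1. Domains touching a gene body numbered 2 in DKO1 and 12 in HCT116, and 8 genes in DKO1 and 4 in HCT116 had none. The whole lists held 1823 domains in DKO1 and 4289 in HCT116, so the DKO1 list was shorter throughout the genome. Of the gene body bins 1.84% lay in a domain in DKO1 and 17.7% in HCT116, where the shares of all shared bins were 18.5% and 44.1%. Set against the other bins of compartment B alone, where 7.60% in DKO1 and 33.8% in HCT116 lay in a domain, the B bins of the genes had 1.90% in DKO1 and 17.8% in HCT116. The number of domains a caller lists can depend on sequencing depth, which is unknown for these maps.

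**Figure D5:**
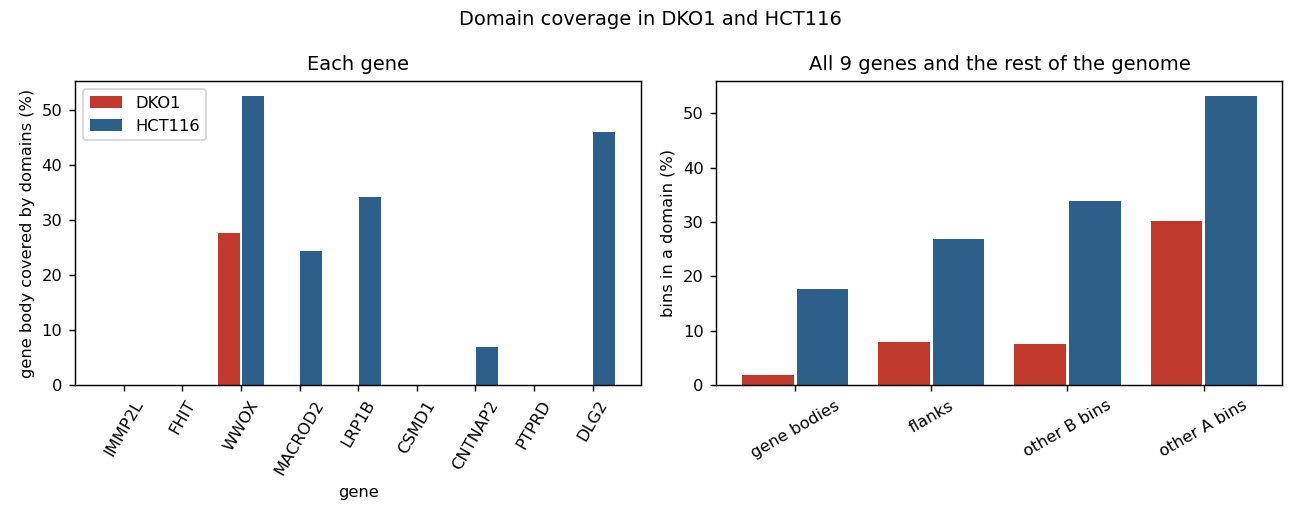
Left, share of each gene body covered by domains (vertical axis, percent) in DKO1 (red) and HCT116 (blue). Right, share of 20 kb bins that lie in a domain for the 9 gene bodies, their flanks and all other bins of compartment B and A, each in the compartments of its own line. Only WWOX has a red bar in the left panel, and in the right panel the gene bodies have the lowest bars of either colour.

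Domains of DKO1 were found in WWOX alone. In WWOX a domain ending at 78160000, which is 30 kb past the 5′ end of the gene, was listed at the same position, 77680001 to 78160000, in both lines. Domains of the lists were matched where each covered 80% or more of the other. A second DKO1 domain of WWOX, at 78520001 to 78800000, lay within the HCT116 domain at 78480001 to 78840000, over the local PC1 peak of HCT116, and was too short to be called a match.

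The other genes had domains in HCT116 only or in neither line. DLG2 was covered by 3 HCT116 domains over 46.1% of its length, LRP1B by 2 over 34.2%, MACROD2 by 3 over 24.4% and CNTNAP2 by 1 over 6.93%, and in DKO1 all 4 had 0 domains. The longest was the LRP1B domain of 640 kb at 141680001 to 142320000. FHIT, CSMD1, PTPRD and IMMP2L had no domain in either line, and in IMMP2L and PTPRD this held for the flanks as well.

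Boundaries shared by the lists lay in WWOX only. Of the 3 DKO1 boundaries in the gene bodies 3 were found in HCT116 within 40 kb, against 91.9% of all DKO1 boundaries. Among 18 HCT116 boundaries 3 had a DKO1 boundary that close, against 44.7% of all HCT116 boundaries. Of the 2 DKO1 domains touching a gene 1 was matched (against 83.1% of all), and of the 12 HCT116 domains 1 was (8.33%, against 35.3% of all). In DKO1 a boundary lay within 40 kb of a gene end at the 5′ end of WWOX alone (30 kb). In HCT116 this was so at the 5′ end of WWOX (30 kb) and LRP1B (10 kb) and at the 3′ end of DLG2 (30 kb). For LRP1B the nearest DKO1 boundary to either end of the gene was 7990 kb away.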

How the data were processed

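Hi-C of 3 DKO1 and 3 HCT116 libraries was represented by 1 compartment track and 1 domain list per line, named by the labels of all 3 replicates and therefore taken as pooled. HiC-Pro, HOMER 4.6 and the build hg19 (GRCh37) are listed in the submitters' processing notes, and which of these tools produced a given file is not given in the sources used here. The deposited PC1 score, per the file headers, is given for 20 kb bins, and its values have a mean of 0 and an SD of 1 within each chromosome. The deposited domain lists hold positions on a 40 kb grid and no score. No file used here holds counts, so depth is unknown.

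A bin belonged to a gene if its middle did. Positive PC1 was called A, and negative B, and a switched bin differed in sign between the lines. Runs joined consecutive switched bins, bridging 1 missing bin. Boundaries were distinct domain starts or ends, found within 40 kb in the other list, and domains were matched at 80% reciprocal overlap. The genes and measures were chosen with earlier results of these data known. 1 gene of the rule is not reported here and stayed out of all counts of the genes. The other 9 genes are named and, in each, the longest runs and the bin of largest difference. No test was possible with 1 value per line. Functions that call switches, runs and boundaries were tested on the HCT116 data with planted sign changes and shifted domains. Python 3.11.15, numpy 2.4.6 and pandas 2.3.3 were used.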

Additional observations from a re-analysis of the deposited data

How the results depend on the processing

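No paired analysis was possible because the files hold 1 value per line, taken as pooled. For the same reason replicates could not be left out. The running mean for counts, leaving out IMMP2L and LRP1B together, medians of gene minus flanks and the gene-end windows were chosen after seeing the data. In gene bodies 121 bins switched from A to B and 6 from B to A, and 3.07% were A in DKO1 and 17.2% in HCT116. In that order, these were 2, 0, 0% and 0.363% where both lines had to reach 0.5 SD in size. With the chromosome median subtracted they were 80, 21 and, in HCT116, 10.9%. Adding the flanks gave 226, 13, 7.98% and 24.8%, and leaving out the outer 100 kb gave 3 B-to-A bins. Without the genes of chromosome 7 there were 78 A-to-B bins. The running mean gave 49 B-to-A bins, 16.0% and 22.7%. Without IMMP2L and LRP1B there were 10 A-to-B and 3 B-to-A bins, with 0.593% A in DKO1 and 1.63% in HCT116. Leaving out single genes gave 53 (without LRP1B; 78 without IMMP2L) to 121 A-to-B bins, 3 (without FHIT or LRP1B) to 6 B-to-A bins, 0.556% (without LRP1B) to 3.58% A in DKO1 and 7.50% (without LRP1B; 12.6% without IMMP2L) to 20.03% (without CNTNAP2) A in HCT116. It gave 0 (without WWOX) to 2 domains in DKO1 and 9 to 12 in HCT116. For the mean difference, median subtraction turned the sign of WWOX (0.10), CSMD1 (0.067) and PTPRD (0.15) and gave 0.86 for MACROD2, 0.48 for CNTNAP2, 0.47 for DLG2, -0.14 for LRP1B and -0.49 for IMMP2L. The running mean gave -0.26 for IMMP2L, -0.41 for CNTNAP2, -0.17 for FHIT and -0.20 for PTPRD. With the flanks added it was 0.22 for MACROD2, 0.095 for CNTNAP2 and -0.0099 for PTPRD. Gene minus flanks, with 250 kb flanks, turned to 0.035 for FHIT, -0.027 for LRP1B and 0.038 for IMMP2L in HCT116 and to 0.0042 for CSMD1 in DKO1, and was -0.51 in DKO1 and -0.49 in HCT116 for CNTNAP2. With medians it was -0.061 for PTPRD and -1.95 for DLG2 in DKO1, -0.55 in DKO1 and -0.30 in HCT116 for CNTNAP2, and 0.00070 for IMMP2L in HCT116. Domains numbered 19 in HCT116 with flanks, and 1 in DKO1 where 50% of a domain had to lie in the gene. At a tolerance of 0 kb, 1 DKO1 and 1 HCT116 boundary were found. First 100 kb above the middle held in 8 or 9 genes in DKO1 and in 7 or 8 in HCT116 under all end windows and the running mean. The cause of these changes was not tested.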
